A study of Bos taurus with 8 samples.

Results

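Interferon-stimulated genes are the genes that a cell switches on when type I interferon reaches it. A list of 37 of them was followed here across 6 bovine embryo-derived stem-like cell (eSLC) lines and 2 samples of somatic cells (SCs). A gene was measured where a probe of the array carried one of its RefSeq accessions, which held for 29 of the 37 genes, out of 12602 genes with a named probe in all. IFIT1, IFIT2, IFI44, IFI44L, IFIH1, BST2, CMPK2 and ADAR had no probe named in this way. Of the 29 genes, 27 passed the filter on dim signals, which asked for both arrays of 1 or more conditions to be well above background, and were tested, as were 10958 genes in all. OAS2, which makes the messenger that activates RNase L, and RSAD2 (viperin) were well above background on 0 of the 8 arrays and were not tested.

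All cells came from HanWoo, the Korean native cattle. The IVP-eSLC lines I2 (passage 35) and I9 (passage 30) came from embryos produced by in vitro fertilization, the NT-eSLC lines N2 (passage 36) and N7 (passage 30) from somatic cell nuclear transfer embryos, and the PA-eSLC lines P1 (passage 31) and P4 (passage 36) from parthenogenetic embryos, which have no sperm genome. Each line started from 1 blastocyst. All 6 were kept on an inactivated murine STO feeder layer in serum-free 3i medium, a mixture of DMEM/F12 and neurobasal media with N2 and B27 supplements and the inhibitors PD184352 (MEK), SU5402 (FGF receptor) and CHIR99021 (GSK3). The SCs, at passages 5 and 10, were grown in DMEM with fetal bovine serum and antibiotics, and the labels give them no tissue. Embryonic origin of the cells and culture medium therefore cannot be told apart in any comparison of eSLCs with SCs.

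Type I interferons bind a receptor made of IFNAR1 and IFNAR2. The receptor's kinases, JAK1 and TYK2, phosphorylate STAT proteins such as STAT2, which join IRF9 in the complex that switches on the antiviral genes. In ruminants this system has a second use, because the trophectoderm of the elongating embryo secretes interferon tau, a type I interferon that signals pregnancy to the uterus. The interferon regulatory factors (IRFs) are transcription factors of the same system, and IRF7 amplifies interferon production.

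Signals are given after subtraction of the local background, on a scale that sets the 75th percentile of each array to 1000. Because each probe has its own efficiency, a signal is compared only with the signal of the same probe on other arrays. Values below 13.3, the lowest signal that counted as well above background on the least sensitive array, were set to 13.3 before logarithms were taken. A gene was called where the adjusted p of limma's moderated test was under 0.05 and the difference was at least 2-fold. Between 71.2% and 76.7% of the spots of an array were well above background. The eSLCs and SCs separated by cell type markers, although the labels name neither trophectoderm nor fibroblasts. Of 18 trophectoderm markers tested, 16 were higher in eSLCs, with a summed signal of 655500 to 2085000 against 20830 to 21420 in SCs. CDX2, a defining factor of the trophectoderm, was not well above background in either SC array. Of 19 fibroblast markers, 17 were lower in eSLCs, with a summed signal of 17290 to 93080 against 1269000 to 1580000. Of 12 leukocyte markers, 4 were higher in eSLCs (30710 to 59860 against 25840 to 27260 in sum). Of all genes tested, 19.7% were called higher in eSLCs and 15.7% lower. Among the called markers, CDX2, ELF5, PAG2, PAG11 and CD8A had passed the filter through the eSLC arrays alone. FBLN1 and POSTN had passed it through the SC arrays alone.

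Across all eSLCs, both subunits of the interferon receptor, 5 of 6 transcription factors and 2 of 9 antiviral effectors were called against SCs. IRF1, IRF2, IRF9, STAT2, IFNAR1 and IFNAR2 were lower in eSLCs, as were the effectors IFIT3 and IFIT5. IRF7 and USP18 were higher. Thus 2 of the 27 tested genes were called higher, where 19.7% of all genes tested were, and 8 were called lower, where 15.7% were. The median difference of the 27 genes was -0.53 on the log2 scale, against 0.23 for all genes tested.

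**Figure D1:**
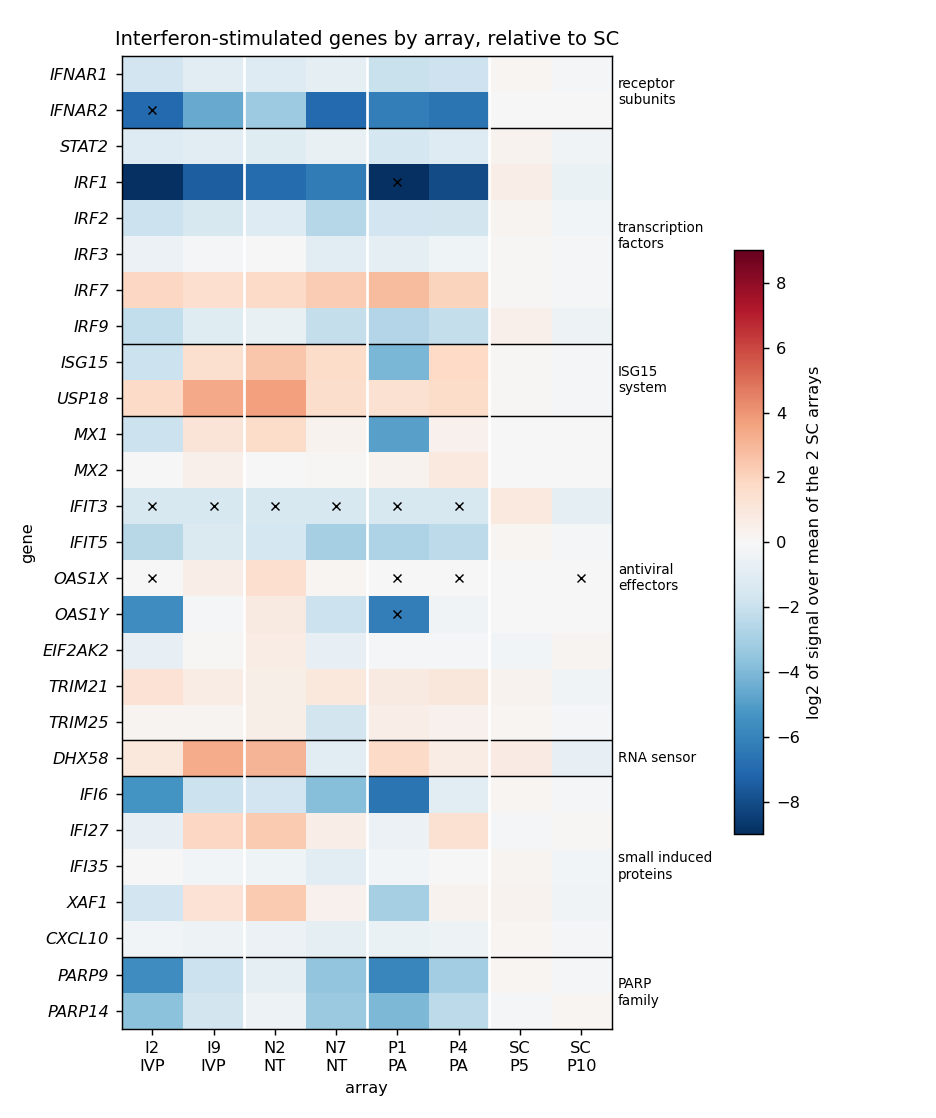
Signal of the 27 tested interferon-stimulated genes (rows, grouped by role) on each of the 8 arrays (columns), as log2 of the signal over the mean of the 2 SC arrays for the same gene; red is above SC and blue below. A cross marks a signal not well above background. The IRF1 and IFNAR2 rows are blue in all 6 eSLC lines and the IRF7 and USP18 rows red, while MX1, ISG15 and XAF1 are red in some lines and blue in others.

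Both receptor subunits were lower in eSLCs. IFNAR1, the subunit that carries TYK2, gave signals of 16.6 in I2, 28.3 in I9, 24.2 in N2, 30.7 in N7, 13.6 in P1 and 14.9 in P4, against 60.3 and 48 in the SCs at passages 5 and 10. All 6 eSLC lines were below both SC arrays, although all signals of this probe lay near the detection limit. The difference was -1.40 ± 0.25 (log2, SE; limma adjusted p = 0.00629). IFNAR2, the subunit that binds interferon most tightly, gave 4.01 in I2, 70.7 in I9, 170 in N2, 7.84 in N7, 22.4 in P1 and 17.8 in P4, against 1605 and 1725 in SCs. All 6 lines were far below both SC arrays, and the lines themselves ranged from background to 170. The IFNAR2 difference was -5.76 ± 1.05 (limma adjusted p = 0.00653), and its second, dimmer probe differed by -3.25. The IFNAR2 call was lost without either SC array (limma adjusted p = 0.0772 without passage 5 and 0.076 without passage 10). The IFNAR1 call was lost without passage 5 (limma adjusted p = 0.0719) and with normexp background correction, where the difference was -0.72 (limma adjusted p = 0.06).

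Behind the receptor, the kinases differed from SCs in opposite directions. JAK1, the kinase bound to IFNAR2, was at 1366 to 2280 in the eSLC lines and at 8449 and 7402 in SCs, a difference of -2.14 ± 0.19 (limma adjusted p = 0.000409). TYK2 went the other way, at 13250 to 32610 in eSLCs and 5418 and 4192 in SCs (2.01 ± 0.28, limma adjusted p = 0.0025). Both kinases separated the eSLC lines from the SC arrays without overlap. IL10RB, a subunit that interferon lambda and interleukin 10 receptors share, was higher in eSLCs (1.08 ± 0.33, limma adjusted p = 0.0388).

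STAT2 and IRF9, parts of the complex that type I interferon activates, were lower in eSLCs. STAT2 gave 552 in I2, 640 in I9, 564 in N2, 765 in N7, 412 in P1 and 553 in P4, and 1534 and 972 in the SCs at passages 5 and 10. Its difference was -1.10 ± 0.26 (limma adjusted p = 0.0157), close to the 2-fold criterion, and without the SC array of passage 5 it was -0.77, under that criterion. With normexp background correction (-0.97) and with the mean over probes (-0.55) STAT2 also fell under 2-fold and was not called. The second STAT2 probe was well above background on 0 arrays. IRF9 gave 752, 1690, 2232, 786, 564 and 813 in the lines I2, I9, N2, N7, P1 and P4, and 4813 and 2631 in SCs. Lines I9 and N2 came nearest to the SC at passage 10, yet all 6 lines stayed below it. The IRF9 difference was -1.83 ± 0.53 (limma adjusted p = 0.0329). It lost its call in 8 of 19 alternatives, among them the fit with the slide as a block (limma adjusted p = 0.053).

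IRF1, an activator of antiviral and antigen presentation genes, showed the largest difference of the 27 genes. Its signal was 13 in I2, 39.8 in I9, 55.2 in N2, 87.1 in N7, 7.8 in P1 and 24.8 in P4, against 10320 and 4370 in the SCs at passages 5 and 10. The highest eSLC line thus stayed far below the lower of the SC arrays, and P1 was not well above background. The difference was -7.77 ± 0.56 (limma adjusted p = 0.000186), and IRF1 kept its call in all 18 alternatives that included it. IRF2, which competes with IRF1 for the same DNA element, was also lower, at 103 to 266 in eSLCs and 715 and 505 in SCs (-1.74 ± 0.39, limma adjusted p = 0.0132; 0.131 and 0.0696 without passages 5 and 10). IRF3, the constitutive factor that starts interferon production, lay at 1067 to 2006 in eSLCs and 2236 and 1908 in SCs, and was not called (-0.49 ± 0.29, limma adjusted p = 0.214).

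IRF7 was the one transcription factor of the list that was higher in eSLCs. It gave 9571 in I2, 7499 in I9, 8652 in N2, 13190 in N7, 19240 in P1 and 10530 in P4, against 2842 and 2534 in SCs. The lowest line was above the higher SC array, and the 6 lines lay within 2.57-fold of each other. The difference was 2.02 ± 0.30 (limma adjusted p = 0.0029), and a second probe gave 2.10. On the values of the deposited series matrix it was 1.40 and not called (limma adjusted p = 0.118). Within the slides the difference was 1.79 on slide 1 and 2.25 on slide 2. Of the other genes of nucleic acid sensing, IRF5 was higher in eSLCs (1.26 ± 0.21, limma adjusted p = 0.00475). STING1, the adaptor of cytosolic DNA sensing, was lower (-3.70 ± 0.25, limma adjusted p = 0.000135), at 133 and 238 in SCs and at most 15.6 in any eSLC line. STING1 had passed the filter through the SC arrays alone, and among the eSLC lines only I9 and P1 were well above background. All eSLC signals of STING1 except that of P1 lay under the floor of 13.3 and were set to it. The size of the STING1 difference and its SE therefore depend on that floor. Of the 13 tested genes of the nucleic acid sensing list, 2 were higher and 1 was lower, where 19.7% and 15.7% of all genes tested were.

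**Figure D2:**
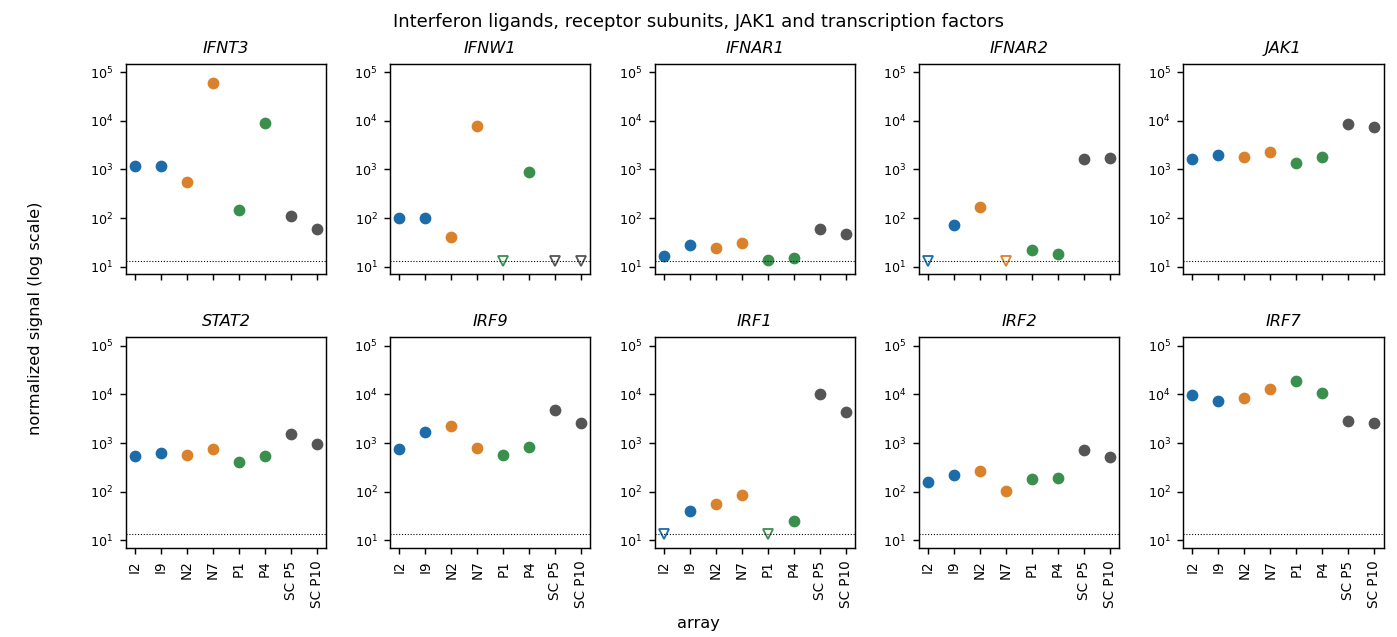
Normalized signal (log axis, 75th percentile of each array = 1000) of 2 interferon ligands, both receptor subunits, the kinase JAK1, STAT2 and 4 IRFs on the IVP (blue), NT (orange), PA (green) and SC (grey) arrays. Open triangles lie below the floor of 13.3 (dotted line) and are drawn on it. IFNT3 and IFNW1 are highest in N7, whereas IFNAR2 is highest in the SC arrays and, among the eSLC lines, in N2.

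The ligands varied widely among the eSLC lines. Of 17 interferon genes listed, 8 had a probe and 3 were tested, and none of these was called. IFNT3, an interferon tau gene, gave 1170 in I2, 1198 in I9, 552 in N2, 61500 in N7, 146 in P1 and 9150 in P4, against 112 and 59.6 in SCs. Every eSLC line was above both SC arrays, but the lines spanned 422-fold, so that the difference of 4.61 ± 2.16 was not called (limma adjusted p = 0.129). IFNW1, an interferon omega gene, was likewise highest in N7 and then P4 and lowest in P1, with 101, 99.4, 40.5, 7760, 6.89 and 894 in I2, I9, N2, N7, P1 and P4. It was not well above background in P1 or in either SC array, and it was not called (3.78 ± 2.30, limma adjusted p = 0.222). Interferon tau and omega genes form families of near-identical copies, so a probe may read more than the gene it is named for, and the identity of the copy is uncertain. IFNB3 lay between 3.32 and 16.4 on all arrays. IFNK, in N7 at 9.65, and IFNG, in P1 at 18.2, were each well above background on 1 array.

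ISG15 and its protease formed an unequal pair. ISG15, the ubiquitin-like protein that is attached to other proteins after interferon stimulation, gave 66.9 in I2, 672 in I9, 1418 in N2, 800 in N7, 14.5 in P1 and 847 in P4, against 275 and 228 in SCs. Lines I9, N2, N7 and P4 were above both SC arrays and lines I2 and P1 were below them, and the mean difference was 0.23 ± 1.61 (limma adjusted p = 0.919). Its sign turned without I9 or without P4. USP18, which removes ISG15 and restrains the receptor, gave 267, 842, 1030, 237, 213 and 259 in I2, I9, N2, N7, P1 and P4, and 87.6 and 74.6 in SCs. All 6 lines were above both SC arrays (2.23 ± 0.66, limma adjusted p = 0.0346). The call was lost without either SC array (limma adjusted p = 0.175 without passage 5 and 0.202 without passage 10) and without I9, P1 or P4, and in 7 of 19 alternatives in all. Of the other 7 tested genes of the list of negative regulators, IRF2 was the one that was called. Thus 1 of the 8 was higher and 1 was lower, where 19.7% and 15.7% of all genes tested were. SOCS3, an inhibitor of JAK kinases, lay at 21.6 to 1804 in eSLCs and at 10.3 and 15.3 in SCs and was not called (4.52 ± 1.60, limma adjusted p = 0.0612).

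Among the antiviral effectors, 2 of 9 tested genes were lower in eSLCs and none was higher, where 15.7% and 19.7% of all genes tested were. IFIT5, which binds viral RNA ends, gave 278 in I2, 613 in I9, 528 in N2, 192 in N7, 226 in P1 and 306 in P4, against 1781 and 1346 in SCs. The lines were all below both SC arrays (-2.25 ± 0.48, limma adjusted p = 0.0115), but without passage 5 or 10 the call was lost (limma adjusted p = 0.119 and 0.0786). IFIT3, of the same family, was not well above background in any eSLC line and gave 67.3 and 19.4 in SCs. It was at least 3.61-fold higher in SCs (limma adjusted p = 0.0396), where such a bound places each dim array at its own lowest signal well above background (7.34 to 13.3 over the arrays). With the common floor of 13.3 the fold was 2.72. IFIT3 had passed the filter through the SC arrays alone, and kept its call in 7 of the 18 alternatives. Without the SC array of passage 5 its difference shrank from -1.45 to -0.55.

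MX1, a GTPase that blocks influenza and other viruses and a standard readout of interferon tau in cattle, gave 321 in I2, 2809 in I9, 3958 in N2, 1569 in N7, 43.2 in P1 and 1667 in P4, against 1250 and 1246 in SCs. Lines I9, N2, N7 and P4 lay above the SC arrays and lines I2 and P1 below, so that eSLCs and SCs overlapped (-0.54 ± 1.49, limma adjusted p = 0.787). The sign turned when P1 was left out (0.34), and 1 of the 3 probes gave 0.08. MX2 stayed near the detection limit, from 15.1 to 27.2 in eSLCs and at 14.7 and 14.6 in SCs (0.32 ± 0.22, limma adjusted p = 0.27). OAS1Y, an enzyme that senses double-stranded RNA, ranged from 5.13 in P1 and 20.4 in I2 to 1672 in N2, around the SC signals of 941 and 1002 (-2.23 ± 2.00, limma adjusted p = 0.396). OAS1X, its near-identical neighbour, was well above background in I9, N2 and N7 (19.8, 37.2 and 14.9) and in 1 SC array at 12.2. The OAS1 copies may share a probe's signal, so these values are uncertain as to the copy.

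The other effectors differed by less than 2-fold or varied among lines. EIF2AK2, the kinase PKR that halts translation, lay at 568 to 1518 in eSLCs and 822 and 1125 in SCs (-0.16 ± 0.42, limma adjusted p = 0.777). TRIM21, an antibody receptor in the cytosol, was higher in all 6 lines (766 to 1280) than in SCs (638 and 428). Its difference of 0.87 ± 0.27 had a limma adjusted p of 0.0389 but stayed under 2-fold. TRIM25, which activates the RNA sensor RIG-I, was near the SC signals of 12940 and 9758 in I2, I9, N2, P1 and P4 (13030 to 16710) and at 3497 in N7. DHX58 (LGP2), a regulator of the RNA sensors, gave 300, 1522, 1247, 74.1, 501 and 239 in I2, I9, N2, N7, P1 and P4, with 247 and 93 in SCs, and was not called (1.45 ± 1.20, limma adjusted p = 0.356).

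None of the 5 small interferon-induced proteins was called, where 19.7% of all genes tested were called higher and 15.7% lower. IFI6, a mitochondrial and endoplasmic reticulum protein, gave 81.6 in I2, 884 in I9, 1054 in N2, 245 in N7, 36.2 in P1 and 1791 in P4, all below the 3845 and 3031 of the SCs. Although the groups did not overlap, the spread among lines left the difference of -3.39 ± 1.65 uncalled (limma adjusted p = 0.14). IFI27 ranged from 424 in I2 and 494 in P1 to 3635 in N2, around 664 and 767 in SCs (0.81 ± 0.88, limma adjusted p = 0.479). XAF1, a promoter of apoptosis, ranged from 18 in P1 to 712 in N2, around 176 and 111 (-0.07 ± 1.16, limma adjusted p = 0.967). IFI35 (3400 to 6580 in eSLCs, 7684 and 5713 in SCs) and the chemokine CXCL10 (38.5 to 57.2 in eSLCs, 75.6 and 62.1 in SCs) varied by less than 2-fold among the lines. PARP9 and PARP14, which modify proteins with ADP-ribose during the interferon response, were below both SC arrays in all lines. PARP9 gave 16.2, 202, 408, 66.5, 13 and 89.1 in I2, I9, N2, N7, P1 and P4, and 864 and 680 in SCs (-3.48 ± 1.25, limma adjusted p = 0.0643). PARP14 gave 74.2, 297, 697, 93.1, 56.1 and 188, and 849 and 1050 in SCs (-2.59 ± 0.94, limma adjusted p = 0.0665). Both missed the threshold, and each met the criterion of 6 of 19 alternatives.

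**Figure D3:**
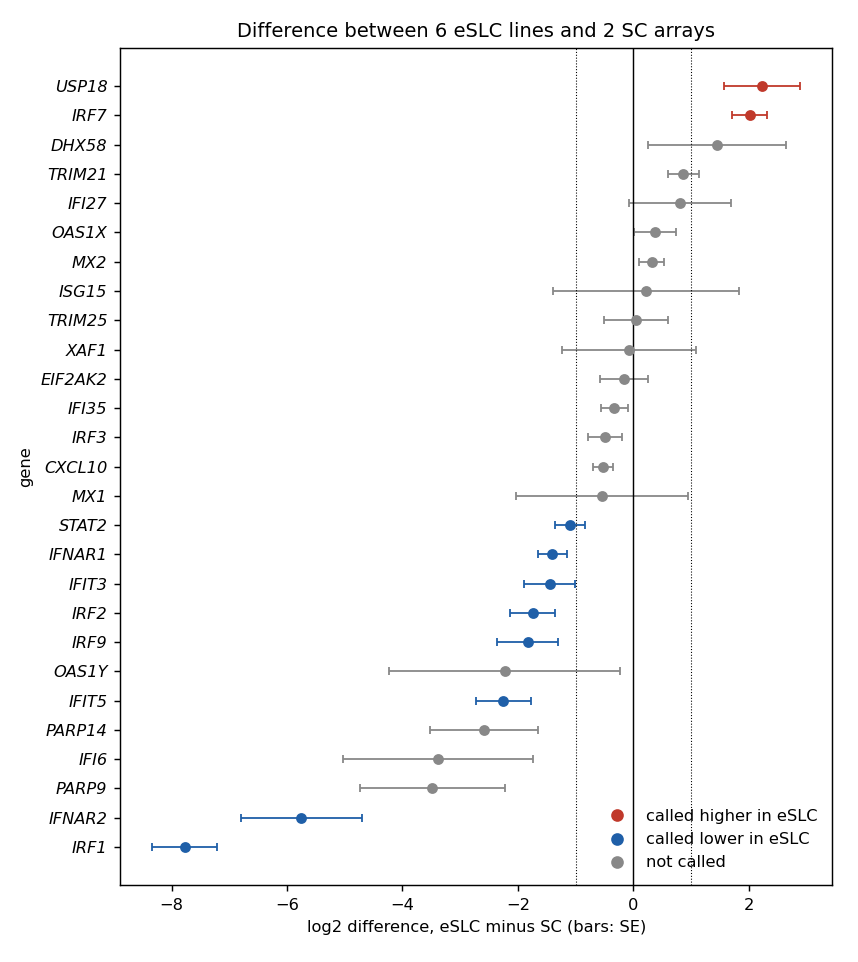
Difference between the mean of the 3 eSLC origins and the SC mean for each of the 27 tested genes (log2, point) with its standard error from limma (bar); red and blue are called, grey is not, and dotted lines mark 2-fold. IRF1 and IFNAR2 lie at -7.77 and -5.76, and the widest bars belong to OAS1Y, IFI6, ISG15 and MX1.

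Without overlap between the 6 eSLC arrays and the 2 SC arrays, 4 of the 27 genes were higher in eSLCs (34% of all genes tested were) and 12 were lower (23.6%). The remaining 11 overlapped. The 4 were IRF7, USP18, TRIM21 and MX2. The 12 were the 8 called genes with IFI6, PARP9, PARP14 and CXCL10.

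A wider list of 58 other interferon-stimulated genes, of which 38 had a probe and 35 were tested, had 17 lower and 4 higher in eSLCs, where 15.7% and 19.7% of all genes tested were, with a median difference of -1.24 against 0.23 for all genes. Of the called genes, TRIM34, GBP5 and SAMD9 had passed the filter through the SC arrays alone, and IRF8 and LGALS9 through the eSLC arrays alone. RTP4, a receptor transporter with antiviral action, was at 10.6 to 14.9 in eSLCs and at 11000 and 6343 in SCs (-9.26 ± 0.23, limma adjusted p = 5.45e-06). IFITM2, which blocks viral entry, differed by -7.09 ± 1.01 (limma adjusted p = 0.00251). TRIM34 and GBP5 were not well above background in any eSLC line and were at least 90.3-fold and at least 58.9-fold higher in SCs by the same bound. TRIM38 differed by -5.27. The higher genes were LGALS9 (4.67), IRF8 (at least 33.2-fold, not well above background in SCs), GBP4 (3.07) and TAP1 (2.33), which carries peptides to MHC class I.

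The eSLC lines differed widely in many of these genes. Of the 27 genes, 10 differed by 8-fold or more between the highest and the lowest of the 6 lines, where 5.76% of all genes tested did. These were OAS1Y (126-fold), ISG15 (97.7-fold), MX1 (91.7-fold), IFI6 (49.4-fold), XAF1 (39.6-fold), PARP9 (30.7-fold), DHX58 (20.5-fold), IFNAR2 (12.8-fold), PARP14 (12.4-fold) and IFI27 (8.57-fold), with signals under 13.3 counted as 13.3. The median SD among lines was 0.77 on the log2 scale for the 27 genes and 0.35 for all genes tested. None of the 6 transcription factors was among the 10. IRF7, STAT2, IRF3 and IRF2 kept within 2.57-fold, 1.86-fold, 1.88-fold and 2.57-fold, whereas IRF9 spanned 3.955-fold and IRF1 6.56-fold. The IRF1 signals of I2 and P1 lay under 13.3 and were counted as 13.3, so that IRF1 spanned at least this fold. With 1 array per line, spread between lines and spread between cultures of a line cannot be told apart.

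**Figure D4:**
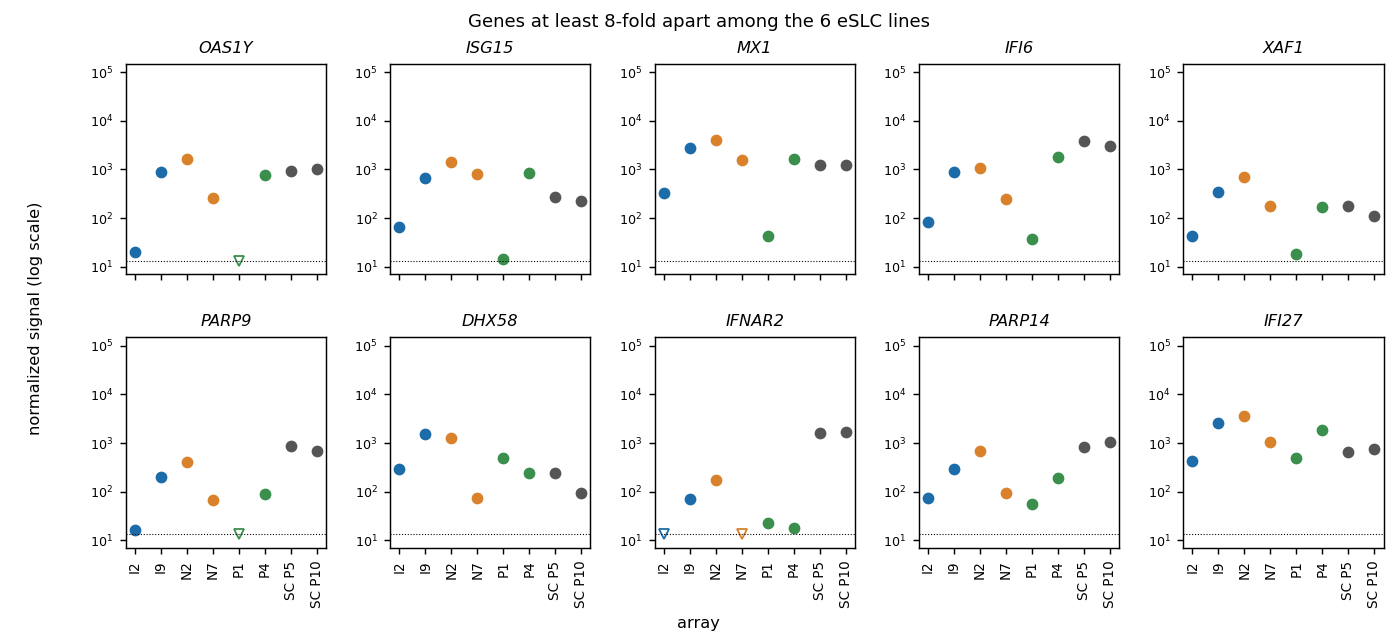
Normalized signal (log axis) of the 10 genes that were at least 8-fold apart among the 6 eSLC lines, from the widest (OAS1Y) to the narrowest (IFI27), with arrays coloured blue (IVP), orange (NT), green (PA) and grey (SC); open triangles lie below the floor of 13.3 (dotted line). In each panel I9 and N2 lie above I2 and P1.

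Lines I9 and N2 often had the higher signals and lines I2 and P1 the lower ones. In all 10 of these genes the signals of I9 and N2 were both above those of I2 and P1, an order found in 39% of the 631 genes that varied 8-fold or more. It held for 20 of the 27 genes and for 24.5% of all genes tested. This order was picked after the values were seen, and it is a description of 1 array per line. Of the 26 genes with signal in eSLCs, N2 was highest in 14 (15.3% of all genes) and P1 lowest in 11 (17.7%). N7 was lowest in 7 (27.2%).

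The order crossed the embryonic origins. Lines I9 (IVP) and N2 (NT) differed by a median of 1.29-fold over these 26 genes, and 5 genes were 2-fold or more apart. Lines of the same origin were farther apart, with a median of 2.23-fold and 14 genes between I2 and I9, 2.57-fold and 16 genes between N2 and N7, and 1.41-fold and 9 genes between P1 and P4. Lines I2 (IVP) and P1 (PA) differed by 1.30-fold. The closest pair of eSLC lines was I2 and P4 (PA) at 1.23-fold, and I9 and P4 differed by 1.45-fold, so that P4 lay near lines on either side of the order. Over all genes the corresponding medians were 1.15-fold for I9 and N2, 1.26-fold for I2 and I9, 1.37-fold for N2 and N7 and 1.25-fold for P1 and P4. They were 1.26-fold for I2 and P1, 1.2-fold for I2 and P4 and 1.3-fold for I9 and P4. The SC pair differed by 1.26-fold over the 26 genes. I2 and I9 were on the same slide, whereas I9 and N2 were on different slides.

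The IFNT3 signals did not follow this order. N7, with the highest IFNT3 signal (61500), had 1569 for MX1 and 800 for ISG15. N2 had 552 for IFNT3, and its MX1 and ISG15 signals, 3958 and 1418, were the highest of the lines. P4, with the second highest IFNT3 signal (9150), had 1667 for MX1 and 847 for ISG15. P1 was lowest for IFNT3 (146), MX1 and ISG15. Among the lines, N2 and I9 had the highest IFNAR2 and IRF9 signals, but IFNAR2 is itself 1 of the 10 genes in which this order was described. What part ligand or receptor signals had in the spread of the other genes was not tested.

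Other genes ran in the same order. It held for 14 of 35 other interferon-stimulated genes and for 11 of 19 fibroblast markers, where 24.5% of all genes tested followed it. The counts were 5 of 18 trophectoderm markers, 2 of 15 housekeeping genes, 1 of 12 leukocyte markers and 0 of 3 interferon ligands. It also held for 8 of 9 receptors, kinases and STATs, 7 of 13 nucleic acid sensing genes and 6 of 8 negative regulators. These last lists each share genes with the list of 37, so their counts are not separate from its own. The shared tested genes are IFNAR1, IFNAR2, STAT2 and IRF9 in the first, DHX58, IRF3 and IRF7 in the second, and USP18 and IRF2 in the third. VIM (vimentin), 1 of the 11 fibroblast markers in this order, gave 1233 in I2, 3765 in I9, 4410 in N2, 1571 in N7, 780 in P1 and 3152 in P4, the same order of lines as MX1. The rest of the 19 markers did not follow it. COL6A1 and COL6A2 ran the opposite way, with COL6A1 at 485 in I2, 170 in I9, 112.5 in N2 and 1549 in P1. The summed fibroblast marker signal was 17290 in I2, 41350 in I9, 51550 in N2, 93080 in N7, 22340 in P1 and 25350 in P4, and 9 of its 19 genes were 8-fold or more apart. Fewer cells of a type and less RNA per cell cannot be told apart in such bulk samples. What part fibroblast-like or feeder RNA had in the spread of the interferon-stimulated genes was not tested.

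Each origin was also set against the SCs, with the same 2 SC arrays in each comparison. In IVP-eSLCs, 1 gene was higher (17.7% of all genes tested) and 6 were lower (14.6%). In NT-eSLCs, 1 was higher (15.8%) and 4 were lower (13.9%). In PA-eSLCs, 1 was higher (20.3%) and 7 were lower (14.9%). The higher gene was IRF7, at 1.66 ± 0.37 in IVP-, 1.99 ± 0.37 in NT- and 2.41 ± 0.37 in PA-eSLCs (limma adjusted p = 0.0163, 0.00928 and 0.00408). In the same order of origins, the IRF1 differences were -8.19, -6.60 and -8.53. The IRF2 differences were -1.68, -1.86 and -1.69. IFIT5 differed by -1.91, -2.28 and -2.56, and IFNAR2 by -5.76, -5.13 and -6.38. STAT2 and IFNAR1 were called in IVP- and PA-eSLCs, and IRF9 in PA-eSLCs. Without the SC array of passage 5, 1, 1 and 3 genes were called in IVP-, NT- and PA-eSLCs, and without that of passage 10, 2, 2 and 5. Over all eSLCs, 2 genes (IRF1 and IRF7) were called without passage 5 and 5 without passage 10, against 10 with both.

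Between the origins, and between passages, limma called none of the 27 genes. In NT- against IVP-eSLCs, 0 of the 27 genes and 0% of all genes tested were called, and at an unadjusted p under 0.05 the counts were 0 and 306. In PA- against IVP-eSLCs they were 0 and 0%, with 0 and 569 at the unadjusted threshold. IRF1 was higher in NT- than in IVP-eSLCs by 1.59 ± 0.69 (limma adjusted p = 1), with 55.2 and 87.1 in the NT lines and 13 and 39.8 in the IVP lines. ISG15 gave 2.33 ± 1.98 for the same comparison. MX1 gave -1.82 ± 1.83 in PA- against IVP-eSLCs (limma adjusted p = 0.896). The mean was higher in NT- than in IVP-eSLCs for 17 genes and lower for 9, and lower in PA- than in IVP-eSLCs for 22 and higher for 4. The median differences were 0.31 (all genes -0.02) and -0.32 (all genes 0.05), and the widest genes set the largest standard errors. Slide 1 held both IVP arrays and slide 2 both PA arrays, so that origin and slide cannot be told apart between them.

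Lines at passages 35 and 36 were compared with the line of the same origin at passages 30 and 31. Of the 27 genes, 0 were called (0% of all genes tested), and at an unadjusted p under 0.05 the counts were 0 of the 27 and 156 of all genes. The mean was higher at the later passage for 22 genes and lower for 4, with a median of 0.29 against 0.02 for all genes. The origins did not move together for the wide genes. MX1 was lower in the later line for IVP (321 in I2, 2809 in I9) and higher for NT (3958 in N2, 1569 in N7) and PA (1667 in P4, 43.2 in P1), with a mean difference of 1.16 ± 1.54. Since each line was measured at 1 passage, line and passage cannot be told apart.

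**Figure D5:**
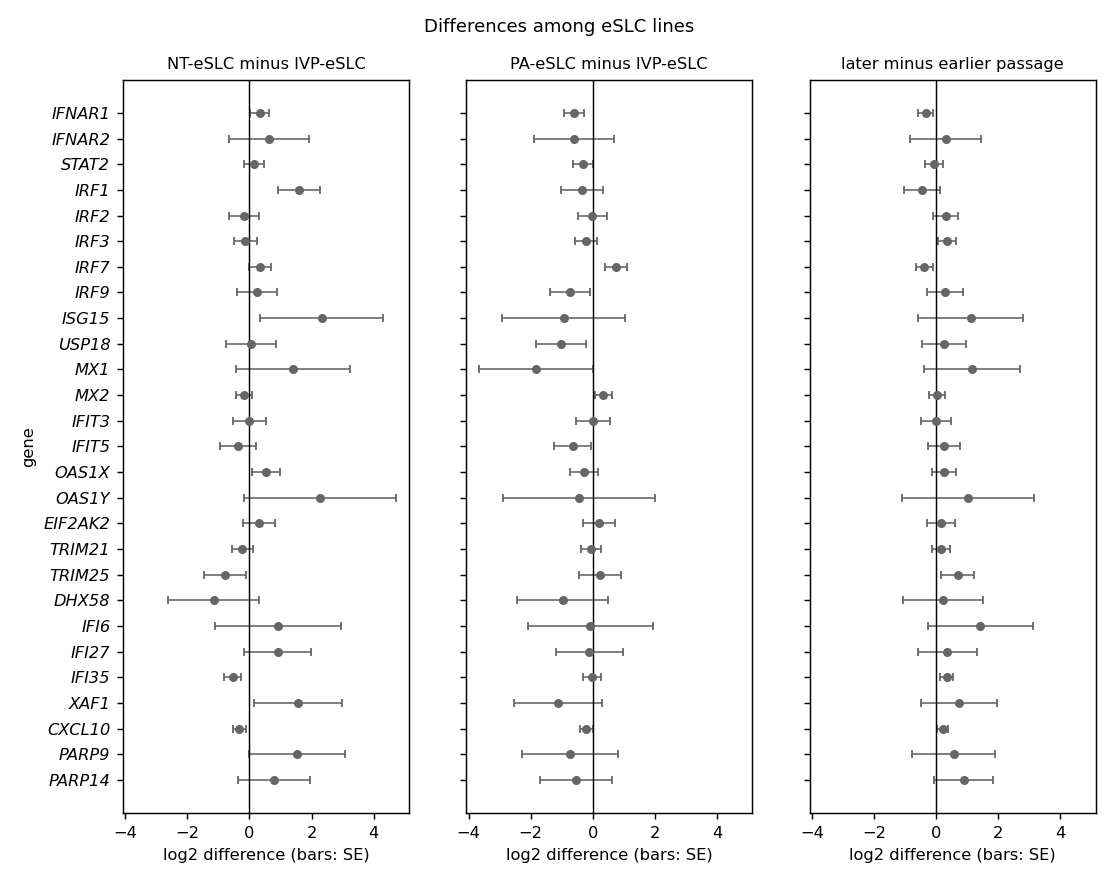
Differences among eSLC lines for the 27 tested genes, as log2 difference (point) with its standard error from limma (bar), for NT- minus IVP-eSLCs, PA- minus IVP-eSLCs, and lines at passages 35 and 36 minus lines at passages 30 and 31. No gene was called in any panel, and the widest bars are those of OAS1Y, IFI6, ISG15 and MX1.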

How the data were processed

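Total RNA of 8 samples was labelled with Cy3 and hybridized to Agilent bovine 44K oligo arrays (1 colour, 4 arrays on each of 2 slides). The authors scanned the arrays and quantified the spots with Feature Extraction, and normalized with GeneSpringGX. The deposited scanner files hold intensities per spot. The background-subtracted intensity (gBGSubSignal) was used, because the processed intensity followed it in 2 arrays only (Spearman's rho 0.971 and 0.973; 0.161 to 0.216 in the other 6). The deposited series matrix holds intensity values that served as an alternative. After removal of 1417 control spots per array and of outlier spots (1 to 11), spots of a probe were averaged, each array was divided by its 75th percentile (1192 to 4092 in raw units), multiplied by 1000, floored at 13.3 and log2-transformed. Number of arrays, not sequencing depth, limits the precision.

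RefSeq accessions named 26743 of 43653 probes through the RefSeq gene table (assembly ARS-UCD2.0; the array's own design used another build, so no coordinates are given). The symbols cover 12603 genes, 8164 of them with several probes, of which the brightest (highest mean log2 signal over the 8 arrays) stood for the gene; all list genes with a probe were counted, and every member was named. Of the other lists, the called genes with the largest differences and the interferon ligands well above background were named. The list of receptors, kinases and STATs is not reported in full here. The members, lists and named orders were chosen with earlier results of these data known.

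One limma 3.58.1 fit (R 4.3.3) over the 8 arrays had a mean per condition and Benjamini-Hochberg adjustment over 10958 genes. It was tested on simulated data with known changes. The eSLC mean is the mean of the 3 origin means. SE is limma's. A bound ("at least") was set where a gene was not well above background on any array of a group, with the dim group placed at each array's own lowest signal well above background (7.34 to 13.3) or at the gene's signal there if that was higher. The labels do not say whether the 2 SC arrays are separate cultures, so p-values may measure technical spread for SCs. Alternatives were the scale, quantile normalization, normexp (on the median spot intensity, since the mean is not in the files), the filter, the probe rule, the series matrix, the samples in the fit, the slide, the methods' t-test, a 2-fold criterion and leaving out each array. Differences within each slide were added after the data were seen. Figures were drawn with matplotlib 3.10.9.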

Additional observations from a re-analysis of the deposited data

Results flagged for a closer look

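One of 26 members checked for a line far from the other 5 met the criterion (Dixon's ratio above its 95% critical value for 6 samples), where chance flags about 1 in 20. TRIM25 was at 3500 in N7, and the nearest of the other 5 lines was at 13000, a ratio of 0.841. A second TRIM25 probe ranged from 222 to 979 over the 8 arrays.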

How the results depend on the processing

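For eSLCs against SCs, 17 of 19 alternatives kept the count of called genes within 1.5 times of 10, and leaving out 1 array gave 2 to 10. For IVP-, NT- and PA-eSLCs against SCs the counts were 7, 5 and 8, and leaving out 1 array gave 1 to 8, 1 to 6 and 3 to 9. Without the filter they were 4 (IVP) and 2 (NT), with only the conditions compared 4 and 3, and by the methods' t-test 4 and 3 unadjusted. After Benjamini-Hochberg adjustment the t-test gave 0, 0 and 3, the series matrix gave 5 (PA), and the 2-fold criterion without a test gave 15, 15 and 18. Between NT- and IVP-eSLCs 1 gene was called on the series matrix and 7 by the 2-fold criterion, and between PA- and IVP-eSLCs 3 by that criterion. All 15 alternatives for passage gave 0. The cause of these changes was not tested.

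The sign of the difference between eSLCs and SCs turned for genes near 0 and for genes that varied among lines, none of them called. For TRIM25 it became 0 with scaling to the median, -0.21 with quantile normalization, -0.065 with the mean over probes, -0.33 without N2, -0.16 without the SC of passage 10 (range without 1 array -0.33 to 0.42) and -0.61 within slide 1. For XAF1 it became 0.13 with normexp, 0.063 with the mean over probes, 0.014 on the series matrix, 0.22 within slide 2, and positive without the SC of passage 5 (0.26), I2 (0.43), N7 (0.26) or P1 (0.47), in a range of -0.61 to 0.47 over all arrays left out. MX2 turned with normexp (-0.011) and on the series matrix (-0.036), OAS1X with normexp (-0.048) and TRIM21 on the series matrix (-0.004). Leaving out 1 array gave -0.75 to 1.20 for ISG15, which turned without I9 (-0.33) or P4, -0.39 to 0.069 for EIF2AK2, which turned without N7 or the SC of passage 10 (0.069), and -1.42 to 0.34 for MX1, which turned without P1. The median difference of all genes, 0.23, was 0.12 with quantile normalization, 0.11 without the filter and 0.06 on the series matrix. IFIT3 lost its call in 11 of 18 alternatives. Signals of IFNAR1, MX2 and OAS1X lay near background, which limits their folds.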
